A study of Mus musculus with 2 samples.

Results

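The Zfp genes are mouse genes whose symbol is Zfp followed by a number, the name given to many genes that encode zinc finger proteins. Both expression tables listed 35522 features, and 364 of them carried such a name after Zfp36, an RNA-binding protein of another kind, was set aside. Of these 364 genes, 215 reached an RPKM of at least 0.25 in both libraries and were compared, against 9483 other genes that passed the same filter. RPKM is the number of reads per kilobase of exon, scaled to the mapped reads of the library, so levels of different genes are given per length.

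To find which neutrophil transcripts differ under tumor exosomes, the study sequenced mRNA of mouse bone marrow neutrophils, sorted as CD11b-positive, Ly6G-high and Ly6C-low cells and kept in culture in the presence of GM-CSF at 10 ng/ml. GM-CSF is a cytokine that sustains granulocytes. The study sorted such cells from tumor-free mice and worked with Balb/C mice of 5 to 8 weeks. The PBS group received buffer for 3 days, and the exosome group received 20 µg/ml exosomes for 3 days, vesicles shed by sphere-derived cancer stem cells of the mouse colon carcinoma line CT26. The GM-CSF was shared by both groups. Each group was 1 library, so no spread between replicates exists for any value here, no p value is given, and whether a library pooled several animals is not given in the sources used here. Intervals cover counting error alone, from reads estimated out of the RPKM steps.

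Most Zfp proteins bind DNA through C2H2 fingers, short folds in which a pair of cysteines and a pair of histidines hold a zinc ion, and a row of fingers reads a longer DNA sequence. In many of them a KRAB box at the amino end recruits the co-repressor Trim28, which brings in the histone methyltransferase Setdb1 and heterochromatin proteins, and such proteins are known for silencing retroelements. KRAB zinc finger genes lie in genomic clusters of related copies. By patterns searched in the translated GENCODE M21 transcripts, 171 of the 364 genes held the core of a KRAB A box (KRAB-type), 156 held at least 3 C2H2 fingers without it (other C2H2), 30 held 0 to 2 fingers (few fingers), and 7 had no translated protein. Among the 215 genes kept the numbers were 90, 105 and 20. The search can miss a diverged A box, which would then count under another class. Under a stricter pattern, which asked for a second motif after the core, Zfp192 and Zfp369 fell among the other C2H2 genes.

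The coding DNA of the A-box core is shown for the 6 KRAB-type genes among the 10 largest increases, and for Zfp568 and Zfp809, a pair of well-studied repressors, because this core sorted the classes. Capitals mark the codons of the 3 residues that the search fixed, an aspartate, a glutamate and a tryptophan. Coordinates are GRCm38, as in mm10, and each stretch of 33 bases lies in 1 coding exon.
Zfp930 (chr8:69226361-69226393, plus strand, exon 2 of 4): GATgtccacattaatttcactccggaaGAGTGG
Zfp192 (chr13:21521859-21521891, minus strand, exon 5 of 6): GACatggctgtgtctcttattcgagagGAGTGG
Zfp81 (chr17:33336798-33336830, minus strand, exon 2 of 4): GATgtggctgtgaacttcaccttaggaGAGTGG
Zfp317 (chr9:19642616-19642648, plus strand, exon 6 of 9): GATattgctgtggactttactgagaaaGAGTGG
Zfp429 (chr13:67396706-67396738, minus strand, exon 2 of 4): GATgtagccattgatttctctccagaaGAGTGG
Zfp369 (chr13:65280280-65280312, plus strand, exon 3 of 8): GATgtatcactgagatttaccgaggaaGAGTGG
Zfp568 (chr7:29997768-29997800, plus strand, exon 5 of 10): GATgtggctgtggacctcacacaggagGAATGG
Zfp809 (chr9:22235038-22235070, plus strand, exon 2 of 6): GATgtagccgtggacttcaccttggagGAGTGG

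Over the 28 pairs of these 8 genes, between 17 and 27 of the 33 bases were identical, with a median of 21.5. The first finger is shown for Zfp146, which is made of fingers almost throughout and is among the largest increases, and for the gene with the largest decrease, Zfp467, with the codons of the zinc-binding cysteines and histidines in capitals.
Zfp146 (chr7:30162502-30162564, minus strand, exon 2 of 2): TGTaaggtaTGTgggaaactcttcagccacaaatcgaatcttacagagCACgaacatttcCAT
Zfp467 (chr6:48439171-48439233, minus strand, exon 5 of 5): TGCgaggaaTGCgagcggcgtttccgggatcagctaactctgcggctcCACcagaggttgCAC

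From the RPKM steps of single reads, about 65.9 M reads were mapped in the PBS library and 79.1 M in the exosome library (M, mega). Neutrophil identity was checked with 10 marker genes. All 10 were kept and were lower with exosomes, 9 of them at least 2-fold, with a summed RPKM of 83756 in PBS and 30262 with exosomes. Of 9 macrophage markers in the tables, all 9 were higher with exosomes (summed RPKM 164.0 and 459.5). Only 5 were kept, 4 of them at least 2-fold higher. Most of the sum came from Csf1r (58.1 and 152.6), Emr1 (20.9 and 151.5) and Cd68 (83.9 and 145.8, log2 ratio 0.80). C1qa stood at 0.18 and 1.42. The 5 B cell markers were present in both libraries and lower with exosomes (108.1 and 66.9). The 6 dendritic cell markers summed to 153.2 and 105.4. The T cell markers summed to 58.7 and 8.24, nearly all from Cd3d, with Cd3e at 0.06 and 0.04. The NK cell, erythroid and epithelial lists summed to at most 1.57 in either library, and Krt8 was at 0 in both. The part of these other cells in the values of the Zfp genes was not tested, and in a bulk library fewer cells of a type cannot be told apart from less RNA per cell.

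Zfp genes were mostly expressed at low levels, and the share that stood higher with exosomes lay at that of all genes. Of the 215 genes kept, 67 were at least 2-fold higher with exosomes (31.2%) and 3 were at least 2-fold lower (1.4%). Over all 9698 genes kept the shares were 31.5% and 5.62%, so the share of Zfp genes that were lower was below the background. The median RPKM of the Zfp genes kept was 2.18 in PBS and 3.45 with exosomes, against 5.39 and 8.68 for the other genes. Their summed RPKM made up 0.312% of the PBS total and 0.38% of the exosome total. The median log2 ratio of exosome to PBS was 0.50 for Zfp genes and 0.53 for other genes. The middle of the distribution was narrower for Zfp genes, with quartiles of 0.11 and 1.07 against -0.06 and 1.21. At a limit of 4-fold, 9 Zfp genes were higher and 1 was lower, with backgrounds of 8.52% and 1.14% of all genes kept.

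**Figure D1:**
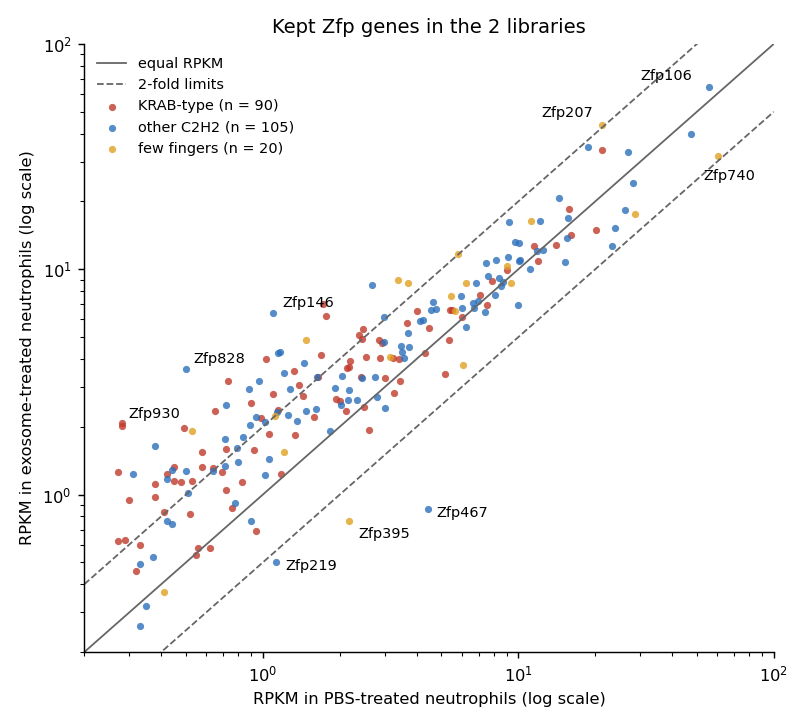
RPKM of the 215 Zfp genes kept in the PBS library (x axis, log scale) and the exosome library (y axis, log scale), 1 point per gene, colored by the class of the encoded protein, with lines at equal RPKM and at the 2-fold limits. The 67 genes above the upper dashed line lie mainly at low RPKM, and Zfp467, Zfp395 and Zfp219 lie below the lower one.

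These counts depend on how the libraries are scaled. The median of all genes kept lay at 0.53 on the log2 scale, and centering on it left 26 Zfp genes at least 2-fold higher and 12 lower with a median log2 ratio of -0.029, where 16.8% and 13.2% of all genes kept passed those limits. The share of higher among the called Zfp genes was 95.7% with the deposited scaling and 68.4% after centering, and over all genes it was 84.9% and 56.0%. Directions below are those of the deposited RPKM, and any gene with a log2 ratio between 0 and 0.53 lies below the median of all genes.

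The ratio depended on the level of expression, so the Zfp genes were set beside other genes of similar mean log2 RPKM, in 10 bins of equal size. Weighted to the bins of the Zfp genes, 39.9% of the other genes were at least 2-fold higher and 5.09% were at least 2-fold lower, against 31.2% and 1.4% of the Zfp genes. The median Zfp gene lay 0.23 below the median log2 ratio of the other genes in its own bin, and 76 of 215 (35.3%) lay above it. In the lowest bin, with a geometric mean RPKM of 0.25 to 0.802, the order was the other way, since 20 of 34 Zfp genes (58.8%) were at least 2-fold higher against 34.1% of other genes. The filter itself limits the ratio that a gene in this bin can show. From the fourth bin to the sixth the Zfp genes were higher less often than the others in these libraries, with 8 of 32, 4 of 24 and 1 of 23 against 47.4%, 37.8% and 29.1%. Above a geometric mean RPKM of 10, 1 of 33 Zfp genes was at least 2-fold higher, namely Zfp207, against 15.4% of 3941 other genes. These shares describe 1 pair of libraries and carry no test.

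**Figure D2:**
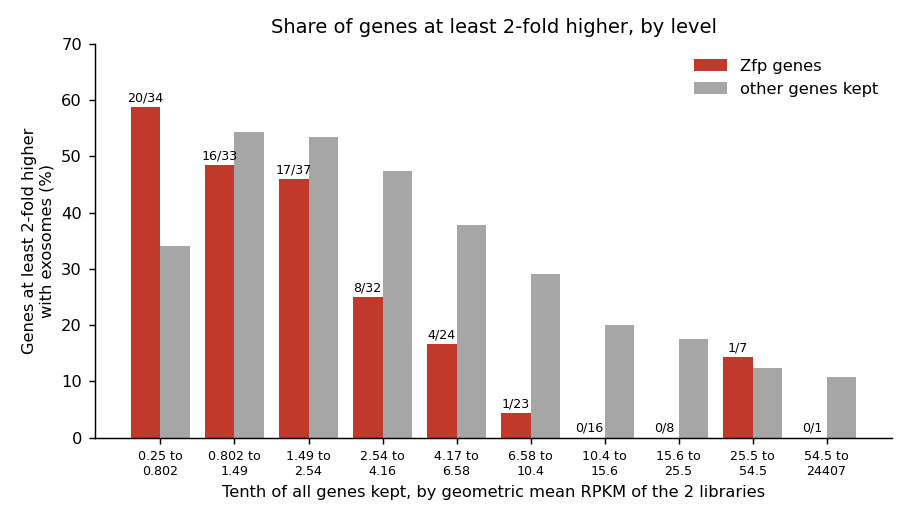
Percent of genes at least 2-fold higher with exosomes (y axis) in each of 10 equal bins of all genes kept, ordered by the geometric mean RPKM of both libraries (x axis), for Zfp genes (red, with the number higher and the number in the bin) and other genes (gray). The Zfp share falls from 20 of 34 in the lowest bin to 1 of 23 in the sixth bin, and from the second bin to the eighth it lies under that of the other genes.

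The 10 largest increases were all genes of low level in PBS. Zfp930, a KRAB-type gene with 12 fingers at chr8:69209018-69230539, had an RPKM of 0.28 in PBS and 2.08 with exosomes, a log2 ratio of 2.89 (95% counting interval 2.5 to 3.33). Zfp828 stood at 0.5 and 3.62, a log2 ratio of 2.86 (2.60 to 3.13). This gene, now named Champ1, encodes a protein that acts in the attachment of chromosomes to the spindle. Zfp192, now Zkscan8, stood at 0.28 and 2.01, with a log2 ratio of 2.84 (2.60 to 3.08). Zfp146, at chr7:30160487-30169775, stood at 1.1 and 6.41 (2.54, 2.29 to 2.80) and encodes a protein of 292 residues that is almost wholly made of its 10 fingers. The exosome to PBS ratios of these 4 genes ran from 5.83 to 7.43, and their intervals lay wholly above the 2-fold limit.

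The next increases were again found in both main classes. The KRAB-type genes were Zfp81 (RPKM 0.27 in PBS and 1.26 with exosomes), Zfp317 (0.73 and 3.18), Zfp429 (1.72 and 7.01) and Zfp369 (0.49 and 1.98). The other C2H2 genes were Zfp623 (0.38 and 1.65) and Zfp41 (0.31 and 1.23). Their log2 ratios ran from 1.99 for Zfp41 to 2.22 for Zfp81, and each interval lay above the 2-fold limit. For Zfp429, 25.3% of the 50-base windows of its longest transcript also occurred in a transcript of another gene, so its reads may be shared with related copies. Of all 67 genes at least 2-fold higher, 44 had a counting interval wholly above that limit, and 10 shared at least 10% of their windows with another gene.

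The 3 genes that were at least 2-fold lower belonged to the C2H2 and few-finger classes, and with the deposited scaling 0 of 90 KRAB-type genes was that much lower. After centering, 1 KRAB-type gene (Zfp963), 7 other C2H2 genes and 4 few-finger genes were at least 2-fold lower. Zfp963 shared 40.4% of its windows with other genes, so its own level is uncertain. Zfp467, at chr6:48427692-48445992, is known as a regulator of the choice between bone and fat cells. It stood at an RPKM of 4.42 in PBS and 0.86 with exosomes, a log2 ratio of -2.36 (-2.57 to -2.16). Zfp395, at chr14:65358676-65398930, stood at 2.18 and 0.76 (-1.52, -1.74 to -1.31). Zfp219, a transcription factor gene at chr14:52006075-52021140, stood at 1.13 and 0.5 (-1.18), and its interval of -1.51 to -0.85 reached across the 2-fold limit.

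The most abundant Zfp genes differed little between the libraries, with the exceptions of Zfp207 and Zfp740. Zfp106, an RNA-binding protein needed in motor neurons and muscle, had the highest mean level, with an RPKM of 55.55 in PBS and 64.35 with exosomes (log2 ratio 0.21). Zfp740 stood at 60.28 and 31.79, a log2 ratio of -0.92 that stopped short of the 2-fold limit. Zfp710 stood at 47.36 and 39.87 (-0.25). Zfp384, a transcription factor that shared 13.1% of its windows with other genes, stood at 26.98 and 33.04 (0.29). Zfp207, which acts at kinetochores and in splicing, stood at 21.32 and 43.87. Its log2 ratio of 1.04 (0.99 to 1.09) lay at the limit, with an interval that crossed it.

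**Figure D3:**
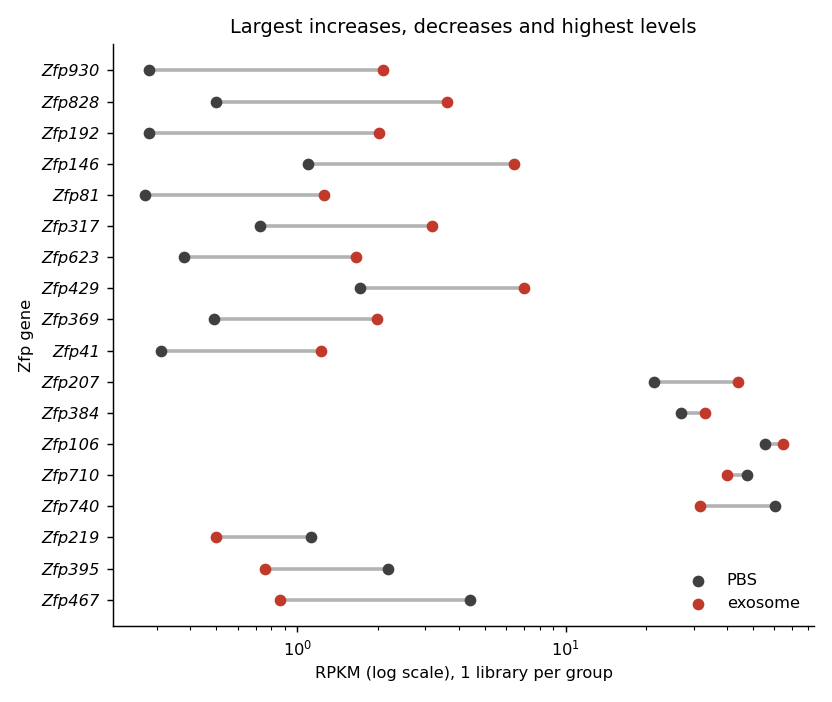
RPKM (x axis, log scale) of the 10 largest increases, the 3 decreases of at least 2-fold and the 5 highest Zfp genes, ordered by log2 ratio (y axis), with PBS in dark gray and exosome in red, 1 library each. The increases start below an RPKM of 2 in PBS, and the highest genes lie above 20 in both libraries.

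Genes that passed the filter in 1 library alone have no ratio here and were counted apart. Of 255 Zfp genes that reached an RPKM of 0.25 in either library, 39 reached it only with exosomes (15.3%) and 1 only in PBS (0.392%), against 6.83% and 2.6% of all features that reached it in either. The Zfp genes lie nearer to the filter than most. Restricted to genes whose higher value lay between 0.25 and 1, the filter was reached only with exosomes by 35 of 58 Zfp genes (60.3%) and 37.2% of 1555 other genes, and only in PBS by 1 of 58 (1.72%) and 16.4%. Among the 39 genes, 27 were KRAB-type, as were 90 of the 215 kept and 171 of all 364 Zfp genes. KRAB-type genes had the lowest median levels among those kept, and shares at equal level were not counted here. Zfp811, a KRAB-type gene at chr17:32795676-32810057, led them with an RPKM of 0.06 in PBS, about 14 reads, and 3.07 with exosomes, about 859 reads. Zfp819 followed with 0.23 and 1.68. The gene that passed the filter only in PBS was Zfp518b, with 0.57 and 0.22.

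A further 83 Zfp genes were above 0 but under the filter in both libraries, and 26 were at 0 in both. Just inside the filter stood Zfp112 (0.33 and 0.26), Zfp81 (0.27 and 1.26) and Zfp97 (0.27 and 0.62). Just outside stood Zfp473 (0.24 and 0.24), Zfp667 (0.24 and 0.3) and Zfp781 (0.24 and 0.34). Zfp97 and Zfp781 shared 83.1% and 96.3% of their windows with other genes, so their own levels are uncertain.

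KRAB-type genes had the lowest levels of the 3 classes, and a larger share of them than of the other C2H2 genes was at least 2-fold higher. Of 90 KRAB-type genes, 35 were higher (38.9%) and 0 lower, with a median log2 ratio of 0.70. Of 105 other C2H2 genes, 26 were higher (24.8%) and 2 lower, with a median of 0.44. Of 20 few-finger genes, 6 were higher and 1 lower, with a median of 0.43. The median RPKM in PBS was 1.61, 2.8 and 5.57 in that order, so the classes differed in level as well. Other genes of similar level were higher in 42.6%, 38.4% and 35.7% of cases. The median gene of each class lay 0.17, 0.25 and 0.31 below the other genes of its bin. Narrower bands of level were also compared. Between a geometric mean RPKM of 0.25 and 1, 18 of 29 KRAB-type and 6 of 17 other C2H2 genes were at least 2-fold higher, and between 1 and 2.5 the numbers were 11 of 22 and 17 of 30. Between 2.5 and 5 they were 6 of 23 and 3 of 16. Between 5 and 10 the numbers were 0 of 9 and 0 of 20, and above 10 they were 0 of 7 and 0 of 22. In the same bands, 39.0%, 54.1%, 45.7%, 32.3% and 15.4% of genes other than Zfp genes were at least 2-fold higher. The KRAB-type share lay above these in the lowest band alone (62.1%), and the other C2H2 share between 1 and 2.5 alone (56.7%). Under the stricter KRAB pattern, 28 KRAB-type and 33 other C2H2 genes were at least 2-fold higher, in place of 35 and 26.

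**Figure D4:**
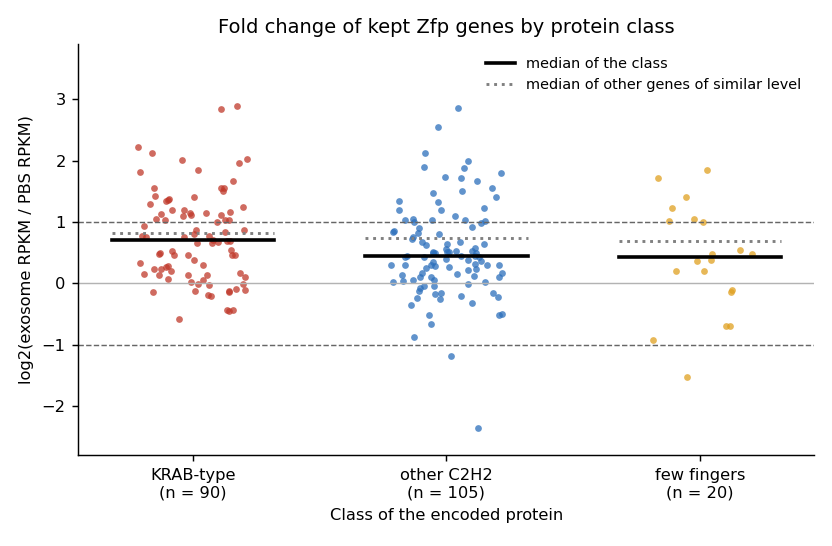
Log2 ratio of exosome to PBS RPKM (y axis) of each Zfp gene kept, 1 point per gene, by protein class (x axis), with dashed lines at the 2-fold limits. The black line is the class median. The dotted line is the median of other genes in the level bin of each class member, averaged over the class. The class medians are 0.70, 0.44 and 0.43, each under its dotted line.

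Transcripts of Zfp genes also differed from other genes in base composition. The median G+C content of the longest transcript was 41.1% for KRAB-type genes, 48.8% for other C2H2 genes and 49.9% for few-finger genes, against 49.7% for the other genes kept. All genes kept were put in 5 equal bins of G+C content. In the lowest bin (up to 43.8%), 45 of 99 Zfp genes were at least 2-fold higher with a median log2 ratio of 0.83, against 33.6% and 0.58 for other genes. In the highest bin (from 55.3%), 3 of 35 were higher with a median of 0.06, against 26.3% and 0.38. The bins between, from low to high G+C, gave no steady fall, with 6 of 28, 10 of 29 and 3 of 24 higher. Their medians were 0.44, 0.52 and 0.30. The Zfp genes had a median geometric mean RPKM of 2.65 in the lowest bin and 4.76 in the highest, so level differed as well. The medians of other genes spanned a smaller range across the same bins. The lowest bin held 63 of the 90 KRAB-type genes, and the part of base composition in the ratios was not tested. By finger number, 7 of 22 genes with 0 to 2 and 20 of 59 with 3 to 7 were at least 2-fold higher. So were 27 of 78 with 8 to 12 and 13 of 56 with 13 or more, beside 31.5% of all genes kept. In the same order the median log2 ratios were 0.43, 0.50, 0.50 and 0.55, highest where the share was lowest. The median geometric mean RPKM was 5.85, 3.30, 2.26 and 2.38, so these bands differed in level too.

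Promoters followed the same order of classes. RefSeq promoter windows of 300 bases (GRCm38.p6, 250 before to 50 after the start) were matched for 181 of the 215 genes, the first listed window of each, and the dinucleotide CG was counted on the printed strand, which gives the same count on the other strand. The median number was 12 for KRAB-type genes, 19 for other C2H2 genes and 24 for few-finger genes, against 21 for the other genes kept. KRAB-type genes at least 2-fold higher had a median of 10 and the other KRAB-type genes 13. The order was the same in the other classes, with 16 and 19.5 for other C2H2 genes. For few-finger genes the medians were 17 and 26.5, from 5 and 8 promoters. The other genes kept were not split in this way, and the Zfp genes that were higher lay mainly at low RPKM. The part of promoter CG in the ratios was not tested. The windows of the KRAB-type gene with the largest increase among those matched, Zfp192, and of Zfp467 are shown to compare the number of CG, in capitals. They hold 12 and 18, and 59.9% and 69.9% of all 27025 RefSeq promoters hold fewer. Among all genes kept with a matched window the median was 21 and the lower quartile 14. Both promoters thus lay below the median of the genes kept, and that of Zfp192 below the lower quartile.
Zfp192 (chr13:21531065-21531364, minus strand): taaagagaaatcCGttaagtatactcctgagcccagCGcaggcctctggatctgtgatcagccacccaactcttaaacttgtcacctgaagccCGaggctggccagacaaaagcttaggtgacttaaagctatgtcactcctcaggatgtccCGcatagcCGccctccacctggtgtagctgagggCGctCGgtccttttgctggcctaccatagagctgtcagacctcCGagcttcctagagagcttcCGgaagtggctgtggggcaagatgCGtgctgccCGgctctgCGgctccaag
Zfp467 (chr6:48445041-48445340, minus strand): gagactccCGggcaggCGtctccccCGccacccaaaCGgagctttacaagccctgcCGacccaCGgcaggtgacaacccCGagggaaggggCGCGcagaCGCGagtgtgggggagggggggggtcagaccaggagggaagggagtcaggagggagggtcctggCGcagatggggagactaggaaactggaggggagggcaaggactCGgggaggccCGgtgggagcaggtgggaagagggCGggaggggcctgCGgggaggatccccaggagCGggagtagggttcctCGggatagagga

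The genomic clusters of Zfp genes differed in how many of their genes were higher. Genes kept that start within 500 kb of the next formed 17 clusters of at least 3, with 94 genes on 9 chromosomes. Of these 94 genes, 32 were at least 2-fold higher (34.0%), against 35 of 121 outside clusters (28.9%) and 31.5% of all genes kept. In 6 clusters 0 genes were that much higher, and in 5 the median log2 ratio was above 1.

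The 5 clusters with a median above 1 lay on chromosomes 7, 8, 13, 15 and 17. In that order the medians were 1.17, 1.08, 1.14, 1.99 and 1.34, not centered, beside 0.53 for all genes kept. The median level of these clusters ran from 0.79 to 2.93 RPKM, where the bin medians of other genes ran from 0.50 to 1.13. Above the median of other genes in their own bin lay 6 of 8, 2 of 4, 7 of 13, 3 of 3 and 4 of 6 genes. The part of level in the cluster medians was not tested. On chromosome 7 (chr7:29768552-30169775), 6 of 8 genes were at least 2-fold higher. They included Zfp146, Zfp568 (1.03 and 4) and Zfp260 (1.28 and 2.93), and the lowest ratio was that of Zfp382 (1.58 and 2.22). On chromosome 13 (chr13:67038594-67683512), 7 of 13 genes were higher, with log2 ratios from 0.11 for Zfp87 (7.09 and 7.66) to 2.03 for Zfp429. On chromosome 15 (chr15:75615200-75975868), Zfp41, Zfp623 and Zfp707 (0.58 and 1.54) were all at least 2-fold higher. On chromosome 17 (chr17:32765496-33631716), 4 of 6 were, from Zfp414 (9.39 and 8.71) at the low end to Zfp81. On chromosome 8 (chr8:71882068-71970333), 3 of 4 were, from Zfp617 (11.56 and 12.74) to Zfp709 (0.42 and 1.24). Zfp58 of the chromosome 13 cluster, with 0.94 and 2.2, shared 50.2% of its windows with other genes, so its own level is uncertain. The same holds for Zfp414 and Zfp617, which shared 43.9% and 44.0%.

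The cluster of Zfp930 (chr8:69209018-69774911) had 5 KRAB-type genes. Zfp930 was higher, while the median log2 ratio was -0.19 and Zfp963, with 40.4% of its windows shared, stood at 5.16 and 3.44. The cluster of Zfp467 (chr6:47835633-48445992) had 0 of 7 genes at least 2-fold higher and a median of -0.20, with Zfp956 (0.42 and 0.76) at the high end. The 13 KRAB-type genes of chr17:21008941-22393909 had 3 genes higher and a median of 0.49, between Zfp944 (5.34 and 4.86) and Zfp54 (0.38 and 1.12). Zfp944 shared 10.4% of its windows with other genes.

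On chromosome 9, 2 of 4 genes were at least 2-fold higher between Zfp426 (6 and 6.13) and Zfp846 (0.38 and 0.98). In its second cluster 1 of 3 was, between Zfp809 (5.39 and 6.58) and Zfp653 (1.21 and 3.45). The remaining clusters of chromosome 7 ran from Zfp771 (2.8 and 2.71) to Zfp764 (0.3 and 0.95), from Zfp787 (8.11 and 7.67) to Zfp444 (0.51 and 1.02), from Zfp579 (0.9 and 0.76) to Zfp865 (5.95 and 7.64), from Zfp112 to Zfp235 (0.44 and 0.74), and from Zfp715 (14.09 and 12.87) to Zfp719 (4.01 and 6.55). Of these 5 clusters, the first and the second held 1 gene each that was at least 2-fold higher. Zfp764, Zfp865 and, on chromosome 9, Zfp653 shared 27.6%, 19.1% and 15.1% of their windows with other genes. The cluster of chromosome 16 ran from Zfp597 (10.07 and 10.85) to Zfp263 (18.69 and 35.01), and that of chromosome 18 from Zfp191 (7.6 and 9.32) to Zfp35 (4.63 and 7.14), with 0 of 3 genes at the limit in each.

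**Figure D5:**
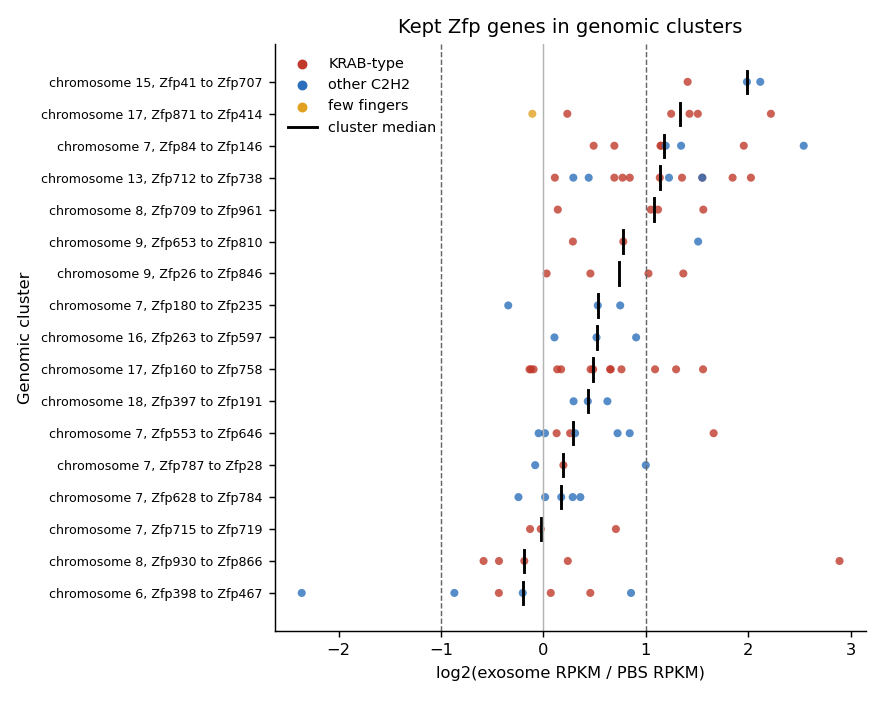
Log2 ratio of exosome to PBS RPKM (x axis) of the 94 Zfp genes in 17 genomic clusters (y axis, ordered by median), 1 point per gene, colored by protein class, with the cluster median in black and dashed lines at the 2-fold limits. The medians run from -0.20 on chromosome 6 to 1.99 on chromosome 15.

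A list of 27 Zfp genes with known roles was followed whatever their ratio. Of these, 23 were kept, 6 were at least 2-fold higher (26.1%) and 0 were lower, with a median log2 ratio of 0.36, beside 31.5% and 5.62% of all genes kept. After centering, 3 were higher (Zfp326, Zfp385a and Zfp568) and 2 were lower (Zfp217 and Zfp687). With the deposited scaling the 6 genes were Zfp568, Zfp207, Zfp260 and the following 3. Zfp326, part of a complex that couples splicing to transcription, stood at 1.48 and 4.86, a log2 ratio of 1.72 (1.57 to 1.87). Zfp385a, an RNA-binding protein linked to p53, stood at 2.67 and 8.49 (1.67, 1.51 to 1.83). Zfp259, now Zpr1, which takes part in the assembly of RNA-protein complexes, stood at 3.38 and 8.99 (1.41, 1.29 to 1.54). Among these, Zfp568 encodes a KRAB repressor needed in the embryo, and its log2 ratio was 1.96 (1.81 to 2.11).

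Several general factors in the list stood near equal levels. Zfp143, an activator at many promoters, stood at 15.6 and 16.82. Zfp148 stood at 8.37 and 9.17, and Zfp281, a factor of pluripotent cells, at 11.14 and 10.03. Zfp335 (11.79 and 12.11), Zfp592 (12.53 and 12.13) and Zfp131 (15.49 and 13.73) had log2 ratios of 0.04, -0.05 and -0.17. Zfp217, a known oncogene product that joins co-repressor complexes, stood at 26.12 and 18.32, and Zfp687 at 9.95 and 6.97, both with a log2 ratio of -0.51.

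Other genes of the list stayed within the 2-fold limit. Zfp598, a ubiquitin ligase that senses collided ribosomes, stood at 11.18 and 16.32. Zfp622, which acts in the assembly of the large ribosomal subunit, stood at 7.46 and 10.68. Zfp346, a binder of double-stranded RNA, stood at 2.97 and 4.74. Their log2 ratios of 0.55, 0.52 and 0.67 lay near the median of all genes kept. Zfp91 (12.11 and 16.44), a ubiquitin ligase of the non-canonical NF-κB pathway, Zfp451 (2.15 and 2.64), a SUMO ligase, and Zfp410 (1.62 and 2.4), an activator of Chd4, had log2 ratios of 0.44, 0.30 and 0.57. Zfp318, needed for IgD in B cells, stood at 1.21 and 1.55, a log2 ratio of 0.36 that became -0.17 after centering. Zfp809, a KRAB repressor of murine leukemia virus, had a log2 ratio of 0.29.

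Zfp57, a keeper of imprints, Zfp423, a gene of fat precursor cells, and Zfp42, a marker of pluripotent cells, were listed at 0 in both libraries. Zfp521, known from early blood progenitors, stood at 0.00985 and 0.00616. For a transcript of the median length of the Zfp genes kept, 3879 bases, 3 reads correspond to an RPKM of 0.0117 in PBS and 0.00977 with exosomes, so values near or under these rest on very few reads and allow no comparison at this depth.

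The partners of KRAB proteins were expressed in both libraries. Of 26 co-repressor genes 25 were kept, with 5 at least 2-fold higher (20.0%), 0 lower and a median log2 ratio of 0.58. Of all genes kept, 31.5% were higher and 5.62% lower. The bin medians of other genes, averaged over the genes of the list, gave 0.54. After centering 3 were higher and 1 was lower. Trim28 stood at 11.32 and 17.93 and Setdb1 at 4.5 and 8.64, log2 ratios of 0.66 and 0.94. With the deposited scaling the 5 genes past the limit were Smarcad1 (0.33 and 2.02), a chromatin remodeler, the heterochromatin protein genes Cbx5 (0.63 and 2.96) and Cbx1 (6.94 and 17.15), the histone deacetylase gene Hdac2 (2.22 and 8.35) and Rbbp7 (4.6 and 11.23). Chd4 (49.9 and 49.01) and Daxx (17.08 and 16.84) differed little, and Dnmt3a (3.34 and 2.08) and Dnmt1 (8.4 and 6.26), which methylate DNA, were lower by less than 2-fold. Of 5 symbols listed for the HUSH complex and its partner, which silence retroelements, 3 were found. All 3 were at least 2-fold higher, Mphosph8 (2.15 and 7.25), Pphln1 (8.1 and 16.69) and Morc2a (1.46 and 4.48), where 31.5% of all genes kept were. The log2 ratio of Pphln1 was 1.04, with an interval of 0.97 to 1.12 that crossed the limit. The median of the 3 was 1.62, against a mean of 0.75 for the bin medians of other genes. After centering, 2 of the 3 were at least 2-fold higher. Of 21 KRAB-type genes with other names that were kept, 10 were at least 2-fold higher and 0 lower, beside the same shares of all genes. Their median was 0.92, against a mean of 0.77 for the bin medians of other genes. After centering 7 were higher and 0 lower.

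Related families were counted in the same way. Of 29 Zbtb genes kept, 4 were higher and 3 lower with a median log2 ratio of 0.24. The numbers were 2 and 0 of 10 for Zscan and Zkscan (0.54), 3 and 1 of 17 for Klf, Sp and Egr (0.11), 4 and 0 of 15 for Zc3h (0.56), and 6 and 1 of 33 for Trim (0.37). The shares higher were 13.8%, 20.0%, 17.6%, 26.7% and 18.2% in the order named. Of all genes kept, 31.5% were higher and 5.62% lower, and of the Zfp genes 31.2% and 1.4%. The bin medians of other genes, averaged over each family, were 0.72, 0.71, 0.42, 0.50 and 0.64 in the same order, beside 0.77 for the Zfp genes. After centering the numbers higher and lower were 4 and 5, 0 and 1, 2 and 2, 3 and 0, and 3 and 6. Of all genes kept, 16.8% were then higher and 13.2% lower.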

How the data were processed

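Bulk mRNA of PBS-treated and exosome-treated neutrophils was measured, with 1 library per group. The authors prepared TruSeq libraries, trimmed reads, analyzed them with CLC Genomics Workbench and deposited a single RPKM value for each feature, and the submitters' processing notes name mm10. The gene annotation, the treatment of multiply matching reads and any scaling beyond that of RPKM are not given in the sources used here.

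The members and lists were chosen with earlier results of these data known. The filter was an RPKM of 0.25 or more in each library, and calls used a ratio of at least 2 in either direction, with no pseudocount. RPKM values are not counts, so no count model was fitted. Values were rounded to 0.01 at most levels, which limits low ratios. Depth was estimated from single-read RPKM steps and the longest GENCODE M21 transcript, and 95% Clopper-Pearson intervals cover counting error alone. Level bins were 10 equal bins of mean log2 RPKM. Protein classes were read from GENCODE M21 translations, not from RefSeq proteins as planned. The finger pattern misses degenerate fingers, and the KRAB pattern can miss diverged A boxes. Symbols were matched to RefSeq (all 364, 9 of the kept under a newer name). The scripts were tested on simulated data with 200 planted changes.

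Genes named were the 10 largest increases, all decreases of at least 2-fold, the 5 highest means, the 3 nearest to the filter on each side, the known-role list, the ends of each cluster, and the co-repressor and HUSH lists. Zfp58, Zfp811, Zfp819 and Zfp518b were named after their values were seen. One marker gene is not reported here. Alternatives were median centering, a trimmed mean of log ratios (30% and 5% left out at each end), TPM, other filters, pseudocounts of 0.25 and 1, a 4-fold limit, a wider membership, 20 bins, bins by PBS level or crossed with length, a stricter KRAB pattern, and clusters at 1 Mb. Software was Python 3.11.15 with pandas 2.3.3 and scipy 1.17.1.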

Additional observations from a re-analysis of the deposited data

How the results depend on the processing

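With 1 library per group no replicate could be left out. No paired analysis was possible because each group holds 1 sample. Median centering and subtraction of a trimmed mean shifted the median of all genes by -0.53 and -0.54. Both gave 26 Zfp genes at least 2-fold higher and 12 lower (KRAB-type 13, other C2H2 11 and few-finger 2 higher), and the median log2 ratio turned to -0.029 and -0.044. An RPKM of at least 1 in both libraries gave 28 higher and 0 lower (KRAB-type 12, other C2H2 11) and a median of 0.38. A pseudocount of 1 gave 21 higher and 1 lower (8 and 9) and a median of 0.35. A limit of 4-fold gave 9 higher and 1 lower (6, 3 and 0). With any RPKM above 0 and a pseudocount of 0.25, the median was 0.35, and the difference from other genes of similar level was -0.031 for Zfp genes, -0.10 for other C2H2 and 0.000236 for KRAB-type genes, where the sign turned. Under median centering the co-repressor genes at least 2-fold higher numbered 3, Zscan and Zkscan 0 and Trim 3. The other 92 recomputed counts and medians stayed within 1.5 times the count, or within the 95% interval of the median over genes. Bins crossed with transcript G+C content, and removal of genes that share sequence, were added after seeing the data and left the median difference at -0.23 and -0.24. Of the 67 named genes kept, 19 changed sign under a setting, none of them at least 2-fold (largest size 0.52). Depth limits ratios of genes below an RPKM of 1, and the spread between cultures is unknown.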

Other observations

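The RNA-binding zinc finger genes of the Zfp36 family share the name and not the finger type, since their CCCH fingers bind AU-rich elements of mRNA. Zfp36 and Zfp36l2 stood above every Zfp gene described. Zfp36, which encodes tristetraprolin, a factor that promotes decay of cytokine mRNA, had an RPKM of 377.4 in PBS and 280.3 with exosomes (log2 ratio -0.43, 95% counting interval -0.44 to -0.41). Zfp36l2 stood at 354.0 and 112.6 (-1.65). Zfp36l1 stood at 8.32 and 72.0 (3.11), the opposite direction to both relatives. Zfp36l3 was listed at 0 in PBS and at 0.00967 with exosomes. Zfpm1, a partner of GATA factors, stood at 1.01 and 0.83, and Zfpm2 was at 0 in both.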
